A study of Mus musculus with 11 samples.

Results

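The major urinary protein (Mup) genes of mouse were taken from 2 expression tables, 1 of liver and 1 of brown adipose tissue (BAT), a heat-producing fat. Members were chosen by symbol, as Mup or Mup-ps followed by a number. This gave 27 of the 2500 genes of the liver table and 9 of the 2500 genes of the BAT table, and all 9 were also in the liver table, so that there were 27 members among the 4474 genes of either table. The family was chosen from earlier results of the Cre against control comparison in these data, with Mup14, Mup16, Mup18 and Mup20 as its leading genes. The members' differences between groups are therefore described and not tested. In the GENCODE M21 annotation of the mouse build GRCm38, 49 genes carry such symbols, of which 22 are protein-coding and 27 are pseudogenes. Of the 27 members, 19 were protein-coding and 8 were pseudogenes, and the coding genes Mup4, Mup6 and Mup22 were in neither table.

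The study sequenced poly(A) RNA from mice with floxed Adcyap1r1 alleles, a genotype the sample labels spell Acypap1r1 floxed/floxed. Adcyap1r1 encodes PAC1, a receptor for the neuropeptide PACAP. Control mice received AAV-GFP, a virus encoding a fluorescent protein, and Cre mice received AAV-Cre, a virus encoding the recombinase that cuts out floxed sequence. Both viruses were injected into the preBötzinger complex (preBötC), the part of the brainstem that paces breathing, and mice of all groups carried the floxed alleles and underwent SEFL, an abbreviation that the labels do not expand. Liver had controls 7, 8 and 9 and the Cre libraries numbered 10, 11 and 12. BAT had controls 1 and 2 and the Cre libraries numbered 4, 5 and 6. The labels give no age, strain or sex of the mice, and do not say whether the libraries are separate animals or whether liver and BAT came from the same mice. What promoter drives Cre, and how complete the deletion was, the labels do not say.

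Several libraries stood apart from the rest of their tissue. In liver, 56.36% of the genes of the table were highest in control 8, and all 4 Y-linked genes were highest in control 7. Markers of muscle and fat cells were high in Cre 12 of liver. In BAT, 70.68% of genes were highest in control 1, as were the Y-linked genes, and hepatocyte markers were high in Cre 6. Differences of the Mup genes, and of the lists set beside them that were extreme in 1 of these libraries, are given with that library and without it.

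The Mup genes encode lipocalins, small secreted proteins whose barrel-shaped fold holds small hydrophobic molecules. In mice the liver makes most of them, the kidney passes them into urine, and the bound odorants and the proteins themselves carry scent signals. Hepatic Mup transcription is known to respond to growth hormone, androgens, thyroid hormone and glucocorticoids, and it is higher in males than in females. The genes lie side by side in 1 cluster, in which a large central group is nearly identical in sequence and a few peripheral genes, among them Mup3, Mup5, Mup20 and Mup21, have diverged from it.

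In GRCm38, 48 of the 49 Mup genes lay on chromosome 4 between positions 59956804 and 62150863, a stretch of 2194.1 kb. All 27 members were on this chromosome. Promoter sequences from RefSeq (GRCm38.p6; 250 bases before to 50 after the annotated start) were matched for 12 of the 19 coding members. The 5 printed here are the part around the TATA element of genes whose values are compared later: Mup18 and Mup14, of the leading genes, Mup11, whose coding sequence is nearly that of Mup18, Mup19, a central gene, and Mup3, a peripheral one. Each run has 120 bases, is written 5′ to 3′ on the minus strand, and ends 9 bases after the TATATA element. The runs of Mup14, Mup11 and Mup3 reach 27, 13 and 4 bases past the annotated start, and those of Mup18 and Mup19 do not pass it. In Mup14 the TATATA element thus lies after that start. Capitals mark bases that differ from the aligned Mup18 promoter or have no counterpart in it. The positions are chr4:61674108-61674227, chr4:61303972-61304091, chr4:60662383-60662502, chr4:61782241-61782360 and chr4:62087314-62087433, in the order of the runs.
Mup18: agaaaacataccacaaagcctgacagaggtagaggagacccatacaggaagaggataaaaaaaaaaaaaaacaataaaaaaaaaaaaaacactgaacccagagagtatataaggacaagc
Mup14: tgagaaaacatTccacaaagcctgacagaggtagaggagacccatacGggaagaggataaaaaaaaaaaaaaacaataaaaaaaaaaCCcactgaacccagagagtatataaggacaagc
Mup11: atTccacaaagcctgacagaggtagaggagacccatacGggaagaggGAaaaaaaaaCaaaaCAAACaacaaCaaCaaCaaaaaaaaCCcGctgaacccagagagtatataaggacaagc
Mup19: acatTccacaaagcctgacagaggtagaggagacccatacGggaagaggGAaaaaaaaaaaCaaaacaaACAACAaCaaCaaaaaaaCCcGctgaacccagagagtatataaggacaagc
Mup3: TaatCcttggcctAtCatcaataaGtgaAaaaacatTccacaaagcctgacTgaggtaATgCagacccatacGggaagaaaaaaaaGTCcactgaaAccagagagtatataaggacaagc
Of the bases aligned to Mup18, Mup14 differed at 4 of 120, Mup11 at 9 of 113, Mup19 at 11 of 115 and Mup3 at 16 of 120. The TATA element and the 9 bases after it were the same in all 5. Searched on both strands, the letters TATATA were found in 11 of the 12 Mup promoters, all but that of Mup7, against 5.671% of the 32851 mouse promoters of this length. TTCNNNGAA, the letters read by STAT factors, which relay growth hormone signals, was in 0 of 12 against 8.298%. TGTTCT, a core element of sites for the glucocorticoid receptor, was in 2 of 12, Mup3 and Mup21, against 18.974%.

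Liver was compared first, as the tissue that makes the Mup proteins. All 27 Mup genes had a lower mean in Cre than in control liver. In 19 of the 27, every Cre library lay below every control library. Over all genes of the liver table, 12.3% had groups that were separate in this direction, and 60.44% had a lower Cre mean. The submitters' name for this table reads upregulated in Cre, so these shares describe the genes of that table and not the genome. The values are row z-scores: for each gene the submitters' table gives the distance of a library from that gene's mean over 6 libraries, in units of that gene's SD. A z-score keeps no level, no fold change and no depth, so sequencing depth is unknown, genes cannot be ranked by abundance, and no z-score can pass 2.24. Cre minus control ranged from -1.67 for Mup2 to -0.66 for Mup18, with a median of -1.43 over the 27 genes and -0.50 over all genes of the table. The family mean was 0.69 ± 0.57 (SD, n = 3) in control and -0.69 ± 0.68 (SD, n = 3) in Cre. These genes share sequence and may share reads, so their number does not count as independent evidence. In bulk tissue, fewer cells of a type and less RNA per cell cannot be told apart.

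The libraries within each group differed. The family mean was 1.3 in control 7, 0.59 in control 8, 0.17 in control 9, -0.11 in Cre 10, -0.51 in Cre 11 and -1.44 in Cre 12. The groups did not overlap, but control 9 and Cre 10 lay close together and the ends of the range were held by control 7 and Cre 12. Control 7 was the highest library for 19 members, against 7.56% of all genes, and Cre 12 the lowest for 23 members, against 13.84% of all genes. Without control 7, all 27 members kept a lower Cre mean, where 63.72% of all genes did, and 21 had separate groups, where 32.2% did. The median difference was then -1.12 against -0.93 over all genes. Without Cre 12, these counts were 26 and 20, where 63.56% of all genes had a lower Cre mean and 17.36% separate groups. Mup18 then had the higher Cre mean. With both libraries left out, all 27 members still had the lower Cre mean, where 67.0% of all genes did. Separate groups were then seen in 22 against 38.6% of all genes, but the median difference was -0.70, against -0.91 over all genes. Centring each library on its own median over the table moved the median Cre minus control of all genes from -0.50 to 0.09. The mean difference of the Mup genes was then -0.78, and 0 of 27 had separate groups, where 11.12% of all genes were separate with Cre lower.

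**Figure D1:**
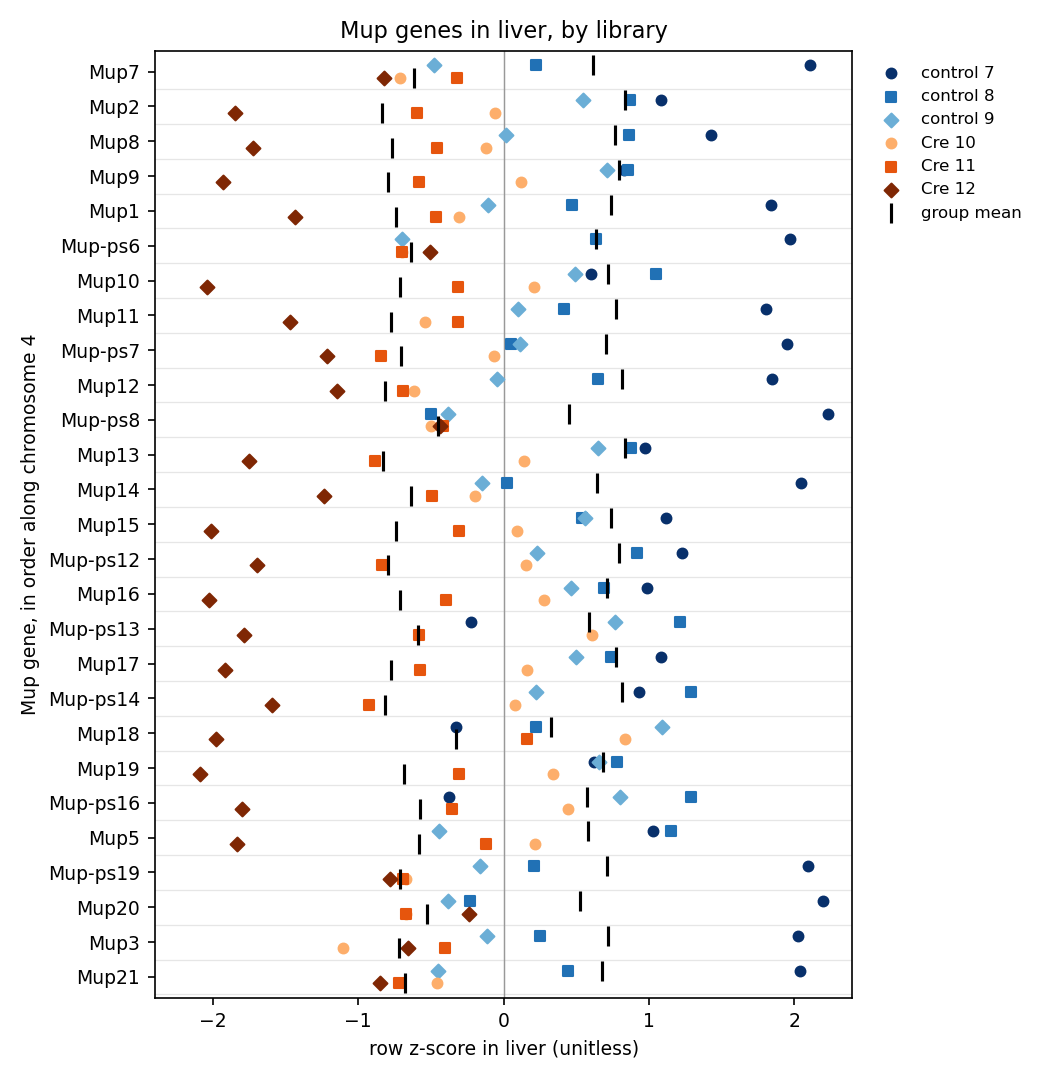
Row z-scores (x axis, unitless) of the 27 Mup genes (y axis, in order along chromosome 4) in the 3 control (blue) and 3 Cre (orange to brown) liver libraries, with black bars for group means. Control 7 is far to the right for 12 genes and Cre 12 far to the left for the other 15, and every Cre mean lies left of its control mean.

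Mup20, also called darcin, is the male urinary protein that attracts female mice. Control libraries 7 to 9 had z-scores of 2.20, -0.23 and -0.38, and Cre libraries 10 to 12 had -0.67, -0.67 and -0.24. Control 7 stood out alone, control 8 and Cre 12 were nearly equal, and control 9 lay below Cre 12. Cre minus control was -1.05 with a standard error of 0.85 from the linear model fitted gene by gene, and it was -0.22 without control 7.

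Mup14, a central gene, had 2.04, 0.02 and -0.15 in the controls and -0.19, -0.49 and -1.23 in the Cre libraries. The groups were separate, but control 9 and Cre 10 were nearly equal. The difference was -1.28 with a standard error of 0.77, and it was -0.58 without control 7 and -0.28 without control 7 and Cre 12. Mup16, another central gene, had 0.99, 0.69 and 0.46 in the controls and 0.28, -0.39 and -2.03 in the Cre libraries. Here the 3 controls were close together and Cre 12 was far below all other libraries, with a difference of -1.43 and a standard error of 0.70. Without Cre 12 the difference was -0.77.

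Mup18 had the smallest difference of the 27. Its controls were at -0.33, 0.23 and 1.09 and its Cre libraries at 0.83, 0.16 and -1.98. Control 7, the highest library for most of the family, was its lowest control, and the difference of -0.66 had a standard error of 0.94. It was -0.99 without control 7, -0.28 without control 9, -1.24 without Cre 10 and 0.17 without Cre 12. Mup2 had the most negative difference, -1.67 with a standard error of 0.55. Its controls were at 1.08, 0.87 and 0.55 and its Cre libraries at -0.06, -0.60 and -1.85, and control 9 and Cre 10 were the nearest libraries of the 2 groups.

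The members fell into 2 profiles by the library that lay farthest from 0, a division made after the values were seen. In 12 members this was control 7: Mup1, Mup3, Mup7, Mup11, Mup12, Mup14, Mup20, Mup21, Mup-ps6, Mup-ps7, Mup-ps8 and Mup-ps19. Their control 7 values ran from 1.81 to 2.23 and their mean in Cre 12 was -0.90. In the other 15 it was Cre 12: Mup2, Mup5, Mup8, Mup9, Mup10, Mup13, Mup15, Mup16, Mup17, Mup18, Mup19, Mup-ps12, Mup-ps13, Mup-ps14 and Mup-ps16. Their Cre 12 values ran from -2.09 to -1.60 and their mean in control 7 was 0.73. The profiles held 8 and 11 coding genes. The difference changed by more than 1.5 times in 11 of the 27 members without control 7 and in 10 without Cre 12, against 0 to 2 without any other library. Separate groups were seen in 8 of the 12 and in 11 of the 15, where 12.3% of all genes were separate with Cre lower. The members with overlapping groups were Mup7, Mup20, Mup-ps6 and Mup-ps8 in the first profile and Mup5, Mup18, Mup-ps13 and Mup-ps16 in the second.

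Along the chromosome, the profiles were not mixed evenly. From Mup13 to Mup5 (chr4:61224307-61835233), 11 of 12 members were farthest from 0 in Cre 12, and Mup14 was the exception. From Mup-ps19 to Mup21 (chr4:61957149-62150863), a stretch with the peripheral genes Mup20, Mup3 and Mup21, all 4 were farthest from 0 in control 7, with values from 2.03 to 2.20. From Mup7 to Mup-ps8 (chr4:60066469-60759526), 7 members were farthest in control 7 and 4 in Cre 12. The peripheral gene Mup5 lay at the end of the Cre 12 stretch, with 1.03, 1.15 and -0.45 in the controls and 0.21, -0.12 and -1.83 in the Cre libraries. Mup3 had 2.03, 0.25 and -0.11 in the controls and -1.10, -0.40 and -0.66 in the Cre libraries, and Mup21 had 2.04, 0.44 and -0.45 against -0.46, -0.72 and -0.85. For Mup3 and Mup21 the Cre libraries lay below the controls, by a narrow margin between control 9 and Cre 10 of Mup21, whereas for Mup5 control 9 was below Cre 10 and Cre 11.

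The pseudogenes followed the coding genes beside them in part. Mup-ps19 had 2.10, 0.21 and -0.16 in the controls and -0.67, -0.69 and -0.78 in the Cre libraries. Mup-ps12 had 1.23, 0.92 and 0.23 against 0.16, -0.84 and -1.70. Both had separate groups, with control 7 farthest from 0 in the first and Cre 12 in the second. Mup-ps13 and Mup-ps16 were alike (r = 0.991) and shared with Mup18 a control 7 value below 0, of -0.22 and -0.37. For Mup-ps6, control 9, Cre 10 and Cre 11 were tied at the lowest value of the row, -0.70.

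In BAT the direction was the opposite. All 9 Mup genes of the table had a higher mean in Cre than in control, and in 3 of them, Mup14, Mup16 and Mup18, all 3 Cre libraries lay above both controls. Over all genes of the BAT table, 4.36% had groups that were separate in this direction and 17.52% had a higher Cre mean. This table is named by the submitters as downregulated in Cre, so these shares, too, are not those of the genome. The median of Cre minus control was 1.13 over the Mup genes and -1.29 over all genes. Scaling in BAT ran over 6 libraries, of which 5 are in the table, and the further one is not analysed here, so a statement on separate groups covers these 5. Whether any gene, Mup14, Mup16 and Mup18 included, would keep separate groups with the further library in its group was not examined. The family mean was -0.73 ± 0.09 (SD, n = 2) in control and 0.44 ± 0.93 (SD, n = 3) in Cre.

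The Cre libraries of BAT were not alike. The mean over the 9 genes was -0.79 in control 1, -0.66 in control 2, -0.63 in Cre 4, 0.98 in Cre 5 and 0.97 in Cre 6. Cre 4 lay next to the controls, and Cre 5 and Cre 6 carried the difference. Each member was highest in Cre 5 or Cre 6, 3 in the former and 6 in the latter. None of the 9 Mup genes was highest in control 1. Without control 1, 8 of 9 members still had the higher Cre mean, where 45.88% of all genes did, and 5 had separate groups, where 18.48% of all genes did. Without control 2, 5 also had separate groups, and without Cre 4, 6 did, against 9.56% and 7.2% of all genes. Centring each library moved the median difference of all genes from -1.29 to -0.17, and 8 of 9 Mup genes then had separate groups against 8.84% of all genes.

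Mup18 had the smallest standard error of the 9 in BAT. It stood at -1.45 and -1.07 in the controls and at 0.24, 0.14 and 0.64 in Cre 4, 5 and 6. Among the libraries in the table, the Cre libraries were close together and all were above both controls, with a difference of 1.60 and a standard error of 0.24. The further library of the scaling has no part in these values. Mup14 stood at -0.999 and -1.001 in the controls and at -0.67, 1.19 and 1.46 in the Cre libraries, and Mup16 at -1.04 and -1.26 against -0.48, 0.96 and 1.42. In both genes Cre 4 was just above the controls, and the differences were 1.66 and 1.78 with standard errors of 0.86 and 0.74.

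The other 6 genes had overlapping groups. Mup19 had -0.12 and -1.16 in the controls and -1.11, 1.18 and 1.41 in the Cre libraries, and Mup7 had -0.24 and -0.77 against -0.93, 0.82 and 1.82. In both, Cre 5 and Cre 6 were above the controls and Cre 4 was not. Mup3 was high in Cre 6 alone, at 2.08, with 0.24 and -0.63 in the controls, and without Cre 6 its difference was -0.18 instead of 0.64. Mup9 was high in Cre 5 alone, at 2.24, with all other libraries between -0.47 and -0.42. Mup10 had -1.70 and -0.29 in the controls and -0.41, 1.54 and 0.17 in the Cre libraries. Mup11 had the smallest difference, 0.28 with a standard error of 1.16, and it was -0.70 without control 1 and -0.26 without Cre 5. In each of these 6 genes the difference moved by more than 1.5 times when some library was left out, which was not so for Mup14, Mup16 and Mup18.

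**Figure D2:**
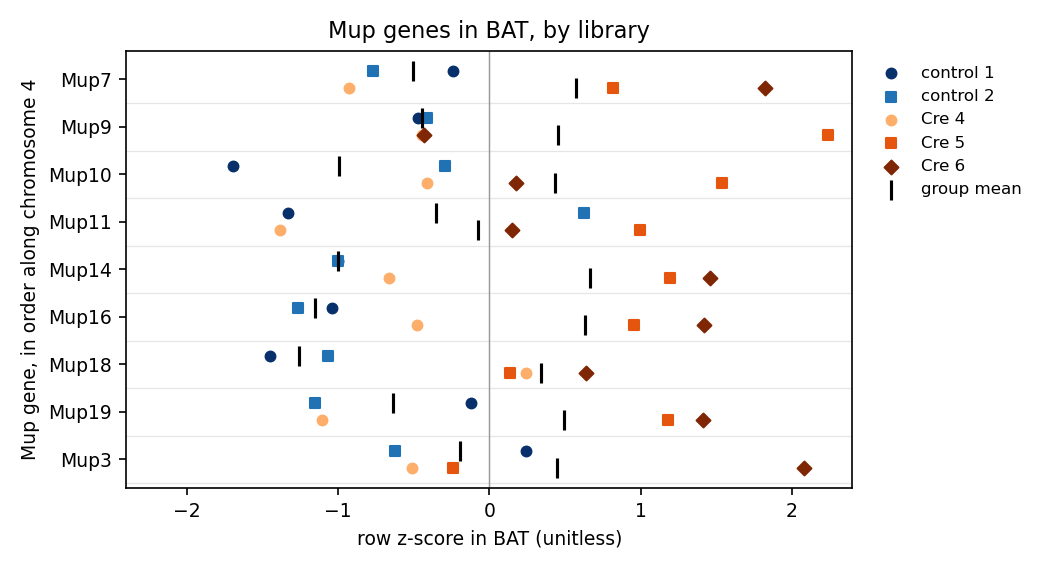
Row z-scores (x axis, unitless) of the 9 Mup genes of the BAT table (y axis, in order along chromosome 4) in 2 control (blue) and 3 Cre (orange to brown) libraries, with black bars for group means. Cre 5 or Cre 6 is the rightmost point for every gene, and both controls lie left of all Cre points for Mup14, Mup16 and Mup18.

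Set side by side, the 9 genes of both tables had higher Cre means in BAT and lower Cre means in liver, 9 of 9. Of the 526 genes in both tables, 59 did so, or 11.22%. Mup14 and Mup16 were 2 of the 5 genes of both tables whose groups were separate in these opposite directions. The mean over the 9 genes differed by 1.17 in BAT and by -1.33 in liver. Mup18 had the smallest difference of the 9 in liver, and Mup9 had the largest of the 9 in liver, -1.59, and was high in 1 library in BAT. The tissues were scaled separately, so the sizes are not on a common scale, and the difference between tissues was not tested.

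**Figure D3:**
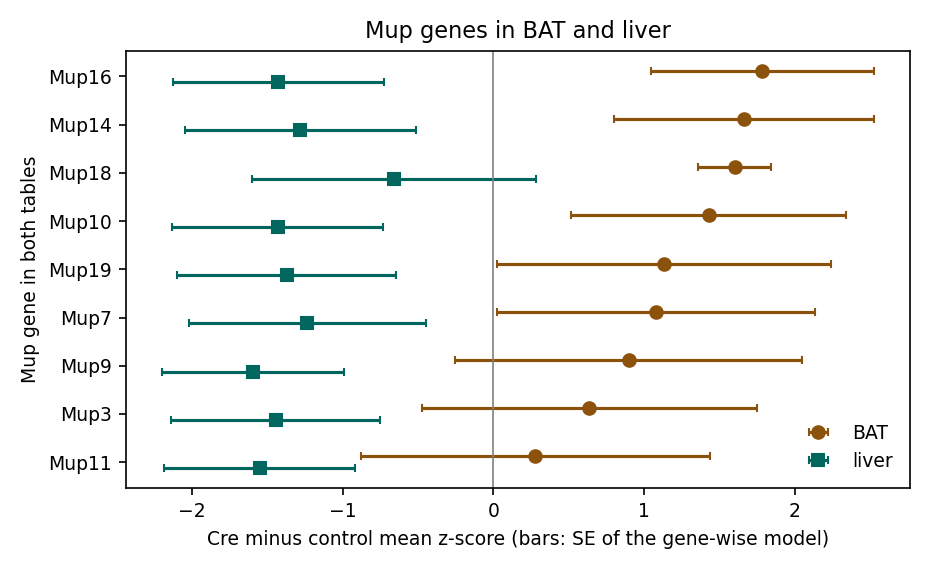
Cre minus control mean z-score (x axis) of the 9 Mup genes in both tables (y axis), with points for BAT (circles) and liver (squares) and bars for the standard error of the gene-wise model. All BAT points lie right of 0 and all liver points left of it, and the bars cross 0 for Mup3, Mup9 and Mup11 in BAT and for Mup18 in liver.

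How far the near-identical copies agreed was read from pairs of genes. The coding sequences of the 19 coding members, 540 to 552 bases long, were 82.585% to 99.816% identical in 171 pairs, with a median of 98.704% and no identical pair. In liver the median Pearson r of z-scores over 6 libraries was 0.88 for the 105 pairs at 98% identity or more, 0.80 for the 30 pairs from 90% to 98%, and 0.70 for the 36 pairs under 90%. In BAT, over 5 libraries, it was 0.59 for 28 pairs and 0.54 for 8 pairs, in the first and the last of these classes. Over all 351 pairs of the 27 liver members the median was 0.81, with 31.91% at 0.9 or more, against a median of 0.17 and 9.74% for all pairs of genes in the table. Over the 36 BAT pairs it was 0.59, with 13.89% at 0.9 or more, against 0.55 and 23.11% for all pairs. The libraries and any shared reads are common to all pairs, so these values are descriptions.

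The pairs closest in sequence did not all agree closest in value. Mup16 and Mup19 differed at 1 coding position and had r = 0.984 in liver and 0.896 in BAT. Mup9 and Mup19 also differed at 1 position and had 0.984 and 0.520, with a gap of 1.84 in Cre 6 of BAT. Mup11 and Mup18, again 1 position apart, had r = 0.338 in liver and 0.221 in BAT. Their largest gap in liver was 2.14 z-score units in control 7, where Mup11 stood at 1.81 and Mup18 at -0.33. Mup3 and Mup7, the least identical pair at 82.585%, had 0.973 in liver and 0.847 in BAT. Mup18 was in 5 of the 9 liver pairs with r below 0, the lowest of which was -0.23 with Mup20. The promoter of Mup11 printed above differs from that of Mup18 at 9 of 113 aligned positions. Those of Mup14, Mup19 and Mup3 differ from it at 4 of 120, 11 of 115 and 16 of 120. In liver these genes had r = 0.229, 0.844 and -0.069 with Mup18. A link between promoter sequence and agreement was not tested.

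**Figure D4:**
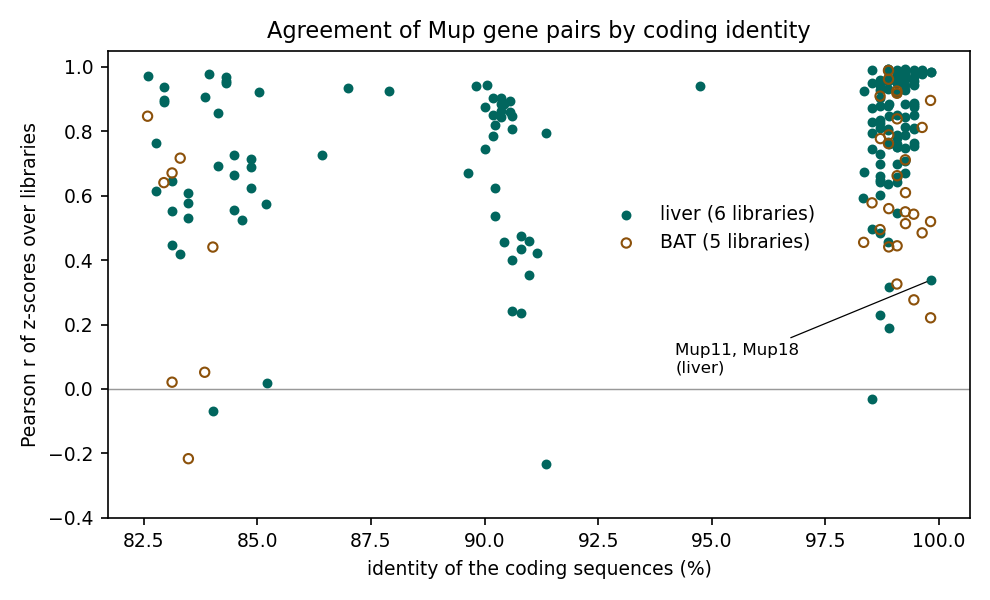
Pearson r of z-scores over libraries (y axis) against identity of the coding sequences (x axis, percent) for 171 pairs of coding Mup genes in liver (filled) and 36 pairs in BAT (open). Most liver pairs at 98% or more lie high, while Mup11 and Mup18, at 99.816%, lie at 0.338.

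Reads of such genes can be hard to assign. In the annotated transcripts of the 19 coding members, a median of 26.63% of the 100-base windows occurred in no other Mup gene, and 5 genes had under 20% of their windows to themselves. With 50-base windows these values were 20.89% and 9 genes, and with 150-base windows 34.3% and 3 genes. At 100 bases Mup19 had 0 of 965 windows of its own, Mup15 2.66%, Mup18 12.88%, Mup13 16.36% and Mup16 17.57%. Mup14 had 24.26% and Mup20 61.16%, while Mup3 had 97.77%, Mup21 95.5% and Mup5 98.67%. The values of Mup3, Mup5, Mup20 and Mup21 thus rest on sequence of their own to a larger share. Those of the 5 genes under 20%, Mup13, Mup15, Mup16, Mup18 and Mup19, are uncertain. The pseudogene members ran from 0% for Mup-ps8 to 77.8% for Mup-ps13 at 100 bases. Read length and the treatment of reads matching several genes are not given in the sources used here.

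The genes most like each leading member were named by the highest Pearson r over libraries. For Mup20 in liver they were 2610305D13Rik (r = 0.995), Gstp1 and Gstp2 (0.994 each), which encode glutathione transferases, Cyp4a12b (0.992), a male-predominant cytochrome P450, and Gm4956 (0.985). For Mup14 they were Capn8, Mup-ps7, Slc22a28, Mup1 and C8a, from 0.985 down to 0.971. For Mup16 they were Rarres1 (0.995) and the 4 genes Mup17, Mup15, Mup9 and Mup19. For Mup18 they were Nanp (0.937), Nlrp12, Chic1, Mup-ps16 and Cyp2c54 (0.859). Mup18 thus had the loosest neighbours of these 4. Of the 135 places that the 27 members filled in this way, 67 were taken by other Mup genes, which make up 1.04% of the rest of the table.

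In BAT 4 of 45 places were taken by Mup genes, which make up 0.32% of the rest. Mup14 and Mup16 were each other's neighbours (r = 0.989). Both also had Kpna2-ps and Hpd, a liver enzyme of tyrosine breakdown, among their 5. The 5 of Mup18 were Ccdc151, Gm45140, Gm28042, Gm10644 and Sh3tc2. Those of Mup3 were Cps1, Pzp, Alb, Tdo2 and Cyp2c29, genes of hepatocytes that like Mup3 were high in Cre 6. With 5 or 6 libraries, 1 extreme library is enough to give a high r.

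Genes with a sex difference in liver are the usual company of the Mup genes. Of 31 male-biased genes without the Mup family, 27 were in the liver table. Of these, 25 had the lower Cre mean, where 60.44% of all genes did, and 7 had separate groups with Cre lower, where 12.3% did. The median difference was -1.16 against -0.50 over all genes. Cyp2d9 had 2.05, 0.37 and -0.23 in the controls and -0.57, -0.87 and -0.74 in the Cre libraries. Cyp4a12a, Cyp4a12b, Cyp7b1, Cyp2u1 and Hsd3b5, enzymes of fatty acid and steroid metabolism, had differences from -1.24 to -1.02, and control 7 at 1.86 to 2.22. Control 7 was the highest library for 23 of the 27. Without it 21 of 27 kept the lower Cre mean, where 63.72% of all genes did, and the median difference was -0.40, less negative than the -0.93 over all genes.

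Of 38 female-biased genes, 35 were in the liver table and all 35 had the higher Cre mean, where 39.56% of all genes did. In 10 of them the groups were separate with Cre higher, where 10.3% of all genes were. Cyp2b9, Cyp2b10, Cyp2b13, Cyp2a4, Cyp2a22 and Cyp2c37 had differences from 0.78 to 1.57, and control 7 at -2.23 to -1.80. Control 7 was the lowest library for 33 of the 35. Without it 28 of 35 had the higher Cre mean, where 36.28% of all genes did. The median difference was then 0.24 instead of 1.03, against -0.93 over all genes. The 4 Y-linked genes were highest in control 7 as well, with a list mean of 2.02 and the other 5 libraries between -0.66 and 0.27. All 4 had the lower Cre mean with and without control 7. Control 7 was thus the highest library for 19 of the 27 Mup genes, 23 of the 27 male-biased genes and all 4 Y-linked genes. It was the lowest for 33 of the 35 female-biased genes. In Mup18, Mup-ps13 and Mup-ps16, control 7 was below 0. The part of that library, or of the sex of the mice, in the result was not tested, beyond the counts without control 7 given above.

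Genes of growth hormone signalling, a pathway that sets much of the sex difference of the liver, were next. Of 23, 8 were in the liver table, 7 with the higher Cre mean and 0 with separate groups. Igfbp2, which binds insulin-like growth factors, and Socs2 and Socs3, which dampen cytokine signalling, had differences of 0.47, 0.41 and 0.80. For Socs2 and Socs3 control 7 was at -1.79, the lowest library. Without control 7, 6 of the 8 had the higher Cre mean, where 36.28% of all genes did. Their median difference was then 0.19 instead of 0.64, against -0.93 over all genes. Of 20 steroid and thyroid hormone receptors and their targets, 10 were in the table, 6 higher and 4 lower, including Esr1, an oestrogen receptor (1.45), and Thrsp (-0.51). Of 22 other lipocalins, 5 were in the table and 4 had the higher Cre mean, among them Lcn2 (0.45), Apom (1.06) and Ptgds (1.03), opposite to the Mup genes. None of 16 other rodent chemosignal genes was in either table.

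Of 15 genes of gluconeogenesis and lipogenesis, pathways that injected or overproduced MUP1 has been reported to alter in mice, 9 were in the liver table and 7 had the higher Cre mean. Fbp1 and Pcx, gluconeogenic enzymes, had differences of 1.51 and 1.39 with separate groups, and Fasn, the fatty acid synthase, 0.94 with overlap. Control 8 was the lowest library for 6 of the 9, and without it 6 of 9 had the higher Cre mean, where 55.6% of all genes did. Of 29 acute phase and secreted liver proteins, 14 were in the table, 9 higher and 5 lower. The first of them, Saa1, Saa2 and Saa3, had differences of -0.21, -0.38 and -0.67.

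Markers of other cells were set beside the family, since Cre 12 was its lowest liver library. Of 14 skeletal muscle markers, 13 were in the liver table and all 13 were highest in Cre 12, with a list mean of 2.21 there and from -0.51 to -0.24 elsewhere. All 13 had the higher Cre mean, and 2 of 13 without Cre 12. Adipocyte markers (8 of 12, all highest in Cre 12) had 2.02 there, and brown adipocyte markers (8 of 12), including Ucp1, had 1.82. Of each of these lists 7 of 8 had the higher Cre mean, and 1 and 0 of 8 without Cre 12. Hepatocyte markers (10 of 22) went both ways in Cre 12. Their list mean was 0.07 there, with Alb at 0.64, Apoa1 at -0.84 and Apob at 0.38, and was lowest in control 8, at -1.23. Of the 10, 7 had the higher Cre mean, 7 without control 8 and 9 without Cre 12. B and plasma cell markers (10 of 12) and T and NK cell markers (4 of 14) were highest in control 8, at 2.003 and 1.87. All of them had the lower Cre mean, as did 8 of 10 and 4 of 4 without control 8. Lung epithelium had 2 of 11 markers in the table, 1 higher and 1 lower, and gland epithelium 0 of 15. The part of other cells in the liver result was not tested, and z-scores cannot show how much of their RNA was present. The same limit keeps the table from checking the tissue labels by level.

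**Figure D5:**
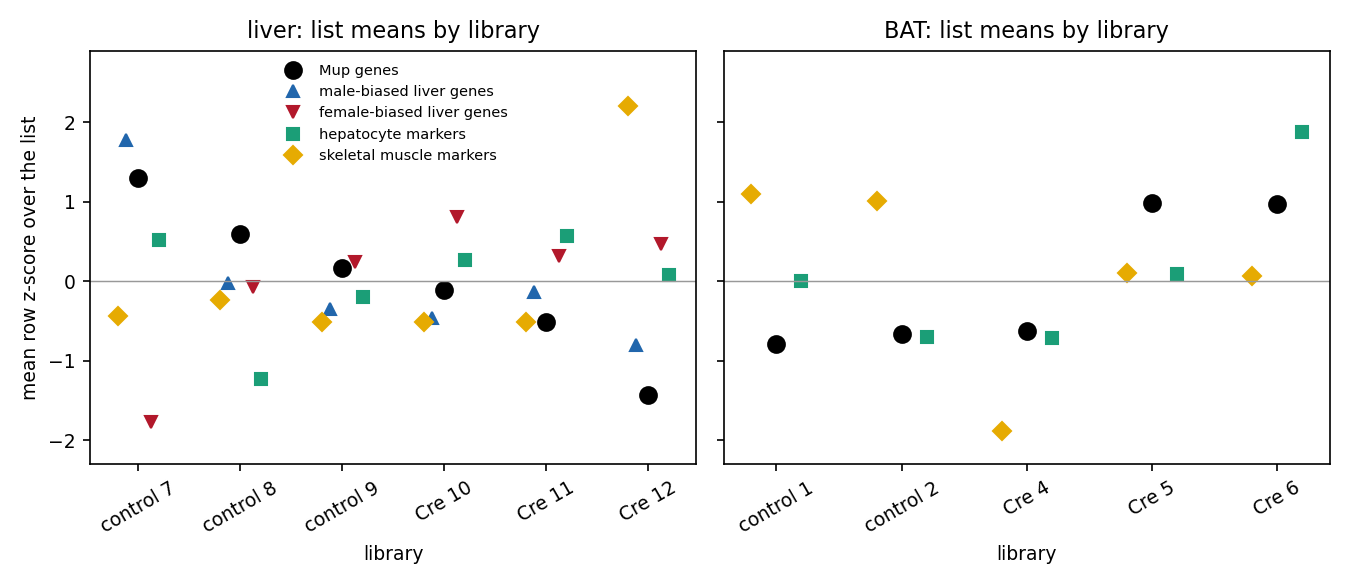
Mean row z-score (y axis) of the Mup genes and of marker lists in each library (x axis) of liver (left) and BAT (right), with points shifted sideways where they would overlap. In liver the Mup genes and male-biased genes are highest in control 7 while muscle markers are highest in Cre 12, and in BAT hepatocyte markers are high in Cre 6 only while the Mup genes are high in Cre 5 and Cre 6.

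In BAT the question is which other liver transcripts lay with the Mup genes. Of 22 hepatocyte markers, 19 were in the BAT table, 18 had the higher Cre mean and 1 had separate groups. Their list mean was 0.01 and -0.71 in the controls and -0.71, 0.08 and 1.87 in Cre 4, 5 and 6, and Cre 6 was the highest library for 17 of the 19. Alb, Apoa1 and Apoa2, secreted by hepatocytes, stood at 2.11, 2.09 and 2.11 in Cre 6. The mean of the Mup genes was 0.98 in Cre 5 and 0.97 in Cre 6, where hepatocyte markers were at 0.08 and 1.87. Their median was 0.997 in Cre 5 and 1.41 in Cre 6, and the Cre 5 mean included Mup9 at 2.24. Without Cre 6, 10 of 19 hepatocyte markers and 8 of 9 Mup genes had the higher Cre mean, where 18.12% of all genes did. The median differences were then 0.08 and 1.26, against -1.27 over all genes, so both lists still lay above the table. Pearson r with the list mean of the hepatocyte markers, over 5 libraries, was 0.978 for Mup3 and 0.939 for Mup7. It ran from 0.775 to 0.839 for Mup14, Mup16 and Mup19, was 0.507 for Mup18, and lay between -0.013 and 0.215 for Mup9, Mup10 and Mup11. The part of liver RNA in the BAT result was not tested further.

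Of the remaining lists in BAT, 12 of 29 acute phase and secreted liver proteins were in the table, 9 with the higher Cre mean, and 9 of the 12 were highest in Cre 6. Without Cre 6, 7 of the 12 had the higher Cre mean, where 18.12% of all genes did. Male-biased genes had 5 of 31 in the table with 4 lower, and female-biased genes 4 of 38 with 2 lower. Growth hormone signalling had 9 of 23 with 5 lower, hormone receptors and targets 3 of 20 with 2 lower, lipocalins 1 of 22, Lcn2, which was lower, and gluconeogenesis and lipogenesis 2 of 15 with 1 lower. All 14 skeletal muscle markers were in the table and had the lower Cre mean with separate groups, as 28.7% of all genes did in this direction. Their list mean was -1.88 in Cre 4, and all 14 were also separate without Cre 4. T and NK cell markers (13 of 14), B and plasma cell markers (3 of 12) and the 4 Y-linked genes were highest in control 1 and had the lower Cre mean. Without control 1, 10, 3 and 4 of them had the higher Cre mean, where 45.88% of all genes did. Lung epithelium markers (4 of 11) were highest in Cre 4, at 2.20, the Cre library in which the Mup genes were lowest. All 4 had the higher Cre mean, and 0 did without Cre 4. Adipocyte and brown adipocyte markers had 2 of 12 each in the table, and gland epithelium 2 of 15, each with 1 higher and 1 lower.

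As background, limma's gene-wise linear model over all genes called 0 of 2500 genes (0%) at an adjusted p under 0.05 in each tissue. The smallest Benjamini-Hochberg adjusted p was 0.363 in BAT and 0.13 in liver. At an unadjusted p under 0.05 there were 23 higher and 262 lower genes in BAT and 81 higher and 63 lower in liver. With variance moderation in limma 0 were called, and these counts were 17 and 209 in BAT and 66 and 51 in liver. Without control 2, 433 BAT genes were called, from a single control that was then assumed to vary like the Cre libraries.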

How the data were processed

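Poly(A) RNA of mouse liver and BAT was sequenced in 11 libraries. The deposited values are a score per gene and library, made by the authors: from the values, row z-scores, since the squares of each row sum to 6 (within 1e-06) over 6 libraries, in BAT once minus the row sum is added as 1 more value. TopHat 1.3.3, DESeq2 1.20.0, mm9, mm10 and GRCm38 are named, with no role, in the submitters' processing notes. The submitters' name for the BAT table reads downregulated in Cre, and that for the liver table reads upregulated in Cre. Both held genes of either direction, with a higher Cre mean in 17.52% of BAT genes and a lower one in 60.44% of liver genes. The labels do not say how the 2500 genes of each table were picked, or whether logarithms preceded scaling. Shares over all genes thus describe these tables and not the genome. The protocol in the labels describes directional and non-directional libraries without saying which was used, so overlapping genes on opposite strands cannot be told apart.

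Groups came from the sample titles. Members matched Mup or Mup-ps plus a number. The members and lists were chosen with earlier results of these data known. Each member was described by its z-scores, group means and SD, and whether the groups overlapped. All genes of a table were fitted with limma 3.58.1 (R 4.3.3) gene by gene, two-sided with Benjamini-Hochberg adjustment. Moderation was left out because scaling gives every row the same total variance over 6 libraries. The variance within groups still differs between rows. The fit was tested on simulated data. Named were all Mup genes, the 5 genes with the highest Pearson r (computed for every member, printed for the leading members and, in BAT, Mup3), and up to 3 genes in list order (6 for the sex-biased lists), of which 1 is not reported here. The coding sequence nearest to 540 bases was taken for each gene from GENCODE M21, pairs were aligned with Biopython 1.88, and own windows were counted over the annotated Mup transcripts only. Python 3.11.15 with pandas 2.3.3 and matplotlib 3.10.9 was used for summaries and figures. Alternatives were leaving out libraries or members, medians, centring, moderation, ties and rank correlation. P-values measure the spread between these libraries, which may be technical.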

Additional observations from a re-analysis of the deposited data

Results flagged for a closer look

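In 3 results every Cre library lay above the controls in BAT, among the 5 libraries used, and below them in liver. For Mup14, Cre minus control was 1.66 in BAT and -1.28 in liver, a gap of 2.94 z-score units. For Mup16 it was 1.78 and -1.43, a gap of 3.21. For the mean over the 9 genes of both tables it was 1.17 and -1.33, a gap of 2.50. That mean was -0.63 in Cre 4 of BAT, against -0.66 in control 2, and -0.09 in Cre 10 of liver, against 0.31 in control 9, so the margin between the groups was narrow in BAT. The difference between tissues was not tested, and each tissue was scaled on its own. No group had the 4 samples that a check for single outlying samples needs.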

How the results depend on the processing

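No paired analysis was possible because library numbers are unique across the groups. Mean Cre minus control over the Mup genes ran from 0.90 to 1.70 in BAT and from -1.66 to -0.999 in liver with libraries left out in turn, and from 1.09 to 1.28 and from -1.40 to -1.36 with genes left out in turn. Centring moved it to 2.28 in BAT. Without control 7 and Cre 12 together, chosen after seeing the data, it was -0.69 in liver. Members with separate groups numbered 3 to 6 in BAT and 20 to 23 in liver with libraries left out, a choice also made after seeing the data, and 8 and 0 after centring. The share of all genes with separate groups in either direction, 33.04% in BAT and 22.6% in liver, ran from 37.84% to 86.52% and from 27.88% to 47.04%. The highest values were without control 2 of BAT, where 49.6% was reached without control 1, and without control 7 of liver. Background calls ran from 0 to 433 in BAT and were 0 in liver. The median r between members ran from 0.58 to 0.72 and from 0.77 to 0.86, and was 0.55 and 0.83 by rank. Among single members, 59 of the alternatives tried in BAT and 237 in liver moved the difference by less than the spread within groups, and 4 and 6 moved it by more. No member with separate groups changed sign. Of the others, Mup3 and Mup11 in BAT and Mup18 in liver did, and Mup3 also with group medians, at -0.05. Depth is unknown, so no limit from it can be given.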
